A study of Mus musculus with 96 samples.

Results

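The genes described here are 10 markers of stratified squamous epithelium: the keratins *Krt5*, *Krt14*, *Krt15*, *Krt1*, and *Krt10*, the differentiation genes *Krtdap* and *Dmkn*, the cornified envelope genes *Lor* and *Sprr1a*, and the surface protein gene *Ly6d*. They were chosen by symbol, several of them because earlier results of these data showed a genotype difference in some tissues and not in others, and they are 10 of 41575 gene symbols in the count table. For that reason the differences between genotypes in these 10 genes are given as a description, and nothing is read from the counts of calls given for them.

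Bulk RNA was measured by multiplexed sequencing in 16 tissues of wild-type mice and of *Scx*-/- mice, which lack scleraxis, a transcription factor of tendon cells. All mice were 3 weeks old, and each tissue and genotype had 3 replicate libraries, 96 in all. The deleted stretch of *Scx* is not described in the sources used here, nor whether replicates came from separate mice or which libraries came from the same animal, so that *p*-values measure the spread between libraries. The deposited counts were divided by the library total and scaled to 1000000 counts per library (CPM), a scale on which a gene can be compared between libraries. Counts were not corrected for length, so an order or a share among genes below is one of counts and not of transcripts. In bulk tissue, fewer cells of a type and less RNA per cell cannot be told apart.

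A stratified squamous epithelium renews itself from a basal layer that expresses *Krt5*, *Krt14*, and *Krt15*. In the epidermis, cells that leave this layer switch to *Krt1* and *Krt10*. In the upper layers they build a protein shell, the cornified envelope, from loricrin (*Lor*) and small proline-rich proteins such as *Sprr1a*. In the mouse stratified squamous epithelium covers the skin, the esophagus, the forestomach, and the anal canal, while the urothelium of the bladder is stratified with basal cells but does not cornify.

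The 10 genes lie in 4 groups on GRCm38, the build of mm10, by the GENCODE vM21 annotation. *Krt5* (chr15:101707070-101712898) and *Krt1* (chr15:101845426-101850794) are in the type II keratin cluster, 132527 bases apart, and *Ly6d* (chr15:74762056-74763620) is on the same chromosome. The targeted gene *Scx* (chr15:76457452-76459458) is on this chromosome too, and *Ly6d* is the nearest of the 10 genes to it. The part of this position in the genotype differences was not tested. *Krt10* (chr11:99385254-99389364), *Krt15* (chr11:100131758-100135928), and *Krt14* (chr11:100203162-100207548) are in the type I cluster. *Dmkn* (chr7:30763756-30781063) and *Krtdap* (chr7:30787896-30791097) are neighbors with 6832 bases between them, and *Lor* (chr3:92080271-92083142) and *Sprr1a* (chr3:92483952-92485895) lie in the epidermal differentiation complex, 400809 bases apart. All 10 are protein-coding genes, on the plus strand for *Dmkn* and *Krtdap* and on the minus strand for the other genes.

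RefSeq promoter sequences of GRCm38.p6 matched 7 of the 10 genes (not *Krt1*, *Krt15*, or *Ly6d*), and the 250 bases before the start were searched on both strands for 3 motifs. The TATA box (TATAAA) was found in 4 of the 7 genes and in 12.4% of 32851 mouse promoters. The AP-1 motif (TGANTCA) was found in 4 of the 7 and in 6.75% of all promoters, and the Grainyhead-like motif (AACCGGTT) in 0 of the 7 and in 0.116%. The 4 genes with an AP-1 match are shown because they are both envelope genes and the adjacent pair on chromosome 7, with the motif letters in capitals, the first of 3 listed starts for *Dmkn*, and each sequence read 5′ to 3′ on the strand of the gene up to the base before the start.
*Lor* (chr3:92083143-92083392, minus strand): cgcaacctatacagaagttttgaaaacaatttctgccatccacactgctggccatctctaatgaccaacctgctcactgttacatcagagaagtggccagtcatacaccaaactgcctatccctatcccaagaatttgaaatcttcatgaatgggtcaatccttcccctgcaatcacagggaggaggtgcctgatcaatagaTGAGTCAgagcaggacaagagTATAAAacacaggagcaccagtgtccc
*Sprr1a* (chr3:92485882-92486131, minus strand): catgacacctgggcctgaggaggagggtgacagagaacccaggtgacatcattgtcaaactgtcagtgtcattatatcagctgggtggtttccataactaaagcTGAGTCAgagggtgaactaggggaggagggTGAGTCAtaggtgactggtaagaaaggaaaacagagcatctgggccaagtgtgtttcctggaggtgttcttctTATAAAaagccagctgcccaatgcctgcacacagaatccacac
*Dmkn* (chr7:30763506-30763755, plus strand): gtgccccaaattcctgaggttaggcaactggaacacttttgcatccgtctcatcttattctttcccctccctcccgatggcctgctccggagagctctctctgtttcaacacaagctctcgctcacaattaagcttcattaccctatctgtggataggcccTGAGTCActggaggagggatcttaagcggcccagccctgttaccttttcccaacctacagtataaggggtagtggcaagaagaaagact
*Krtdap* (chr7:30787655-30787904, plus strand): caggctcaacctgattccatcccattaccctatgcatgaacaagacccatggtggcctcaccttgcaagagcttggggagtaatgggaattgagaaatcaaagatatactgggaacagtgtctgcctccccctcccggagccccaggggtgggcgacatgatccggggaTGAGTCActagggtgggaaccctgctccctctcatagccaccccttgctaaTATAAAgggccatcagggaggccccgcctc
Counted from the start as base 0, the AP-1 letters began at -48 in *Lor*, at -146 and -116 in *Sprr1a*, at -89 in *Dmkn*, and at -81 in *Krtdap*. The TATA box began at -27 in *Lor*, -43 in *Sprr1a*, and -30 in *Krtdap*, and *Krt10* had a TATA box at -26 without an AP-1 match. These are matches of letters, not measured binding.

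Total counts ranged from 11244 to 1658192 over the 96 libraries. Of 32 tissue marker genes (2 per tissue), 29 were found in all 6 libraries of their own tissue and 27 were highest there. *Slc26a3* of rectum was highest in intestine, the adipose genes *Adipoq* and *Fabp4* were highest in the vascular samples, and the smooth muscle genes *Myh11* and *Tagln*, used for vascular, were highest in bladder. *Adipoq* was found in 1 of 6 adipose libraries. Both vascular markers were found in all 6 vascular libraries. *Scx* itself had counts in 12 of 48 wild-type libraries, 80 counts in all, and in 1 of 48 *Scx*-/- libraries. That library, the one labelled *Scx*-/- cartilage replicate 1, held 9 counts (37.2 CPM), against 0, 28.2, and 3.63 CPM in wild-type cartilage. In rectum and bladder *Scx* was at 0 in both genotypes, and in stomach 1 wild-type library had 3 counts, so that *Scx* does not check the genotype labels of these tissues. A gene of the gastric surface gave a measure of counts found outside its tissue: *Gkn1* was at 59207 ± 10106 CPM (SD, n = 3) in wild-type stomach and at a mean of 37.4 CPM in wild-type bladder and 95.4 CPM in wild-type rectum. It was at 59.4, 471, and 42.6 CPM in wild-type intestine and at 1365, 99.95, and 2453 CPM in *Scx*-/- intestine. Over both genotypes it was at 130 to 364 CPM in cartilage, 54.2 to 388 CPM in adipose, 20.1 to 367 CPM in kidney, and 0 in heart and muscle. The part that such counts have in low member values was not tested.

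Nearly all counts of the 10 genes were in stomach, bladder, and the rectum of *Scx*-/- mice. Between 83.1% (*Ly6d*) and 99.1% (*Krtdap*) of each gene's counts over the 96 libraries were in stomach, rectum, and bladder. In wild-type mice *Krt5*, *Krt15*, *Sprr1a*, and *Ly6d* were highest in bladder and the other 6 genes in stomach. In *Scx*-/- mice 8 of the 10 were highest in rectum, and *Sprr1a* and *Ly6d* in bladder. The libraries of the highest tissue overlapped those of the next for *Krt14* in wild-type mice and for *Krt5*, *Krt15*, and *Lor* in *Scx*-/- mice. Without *Scx*-/- rectum replicate 1, *Krt15* was at a mean of 274 CPM in rectum against 1069 CPM in bladder. The heat map of the group means shows the same 3 columns above a nearly empty background.

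**Figure D1:**
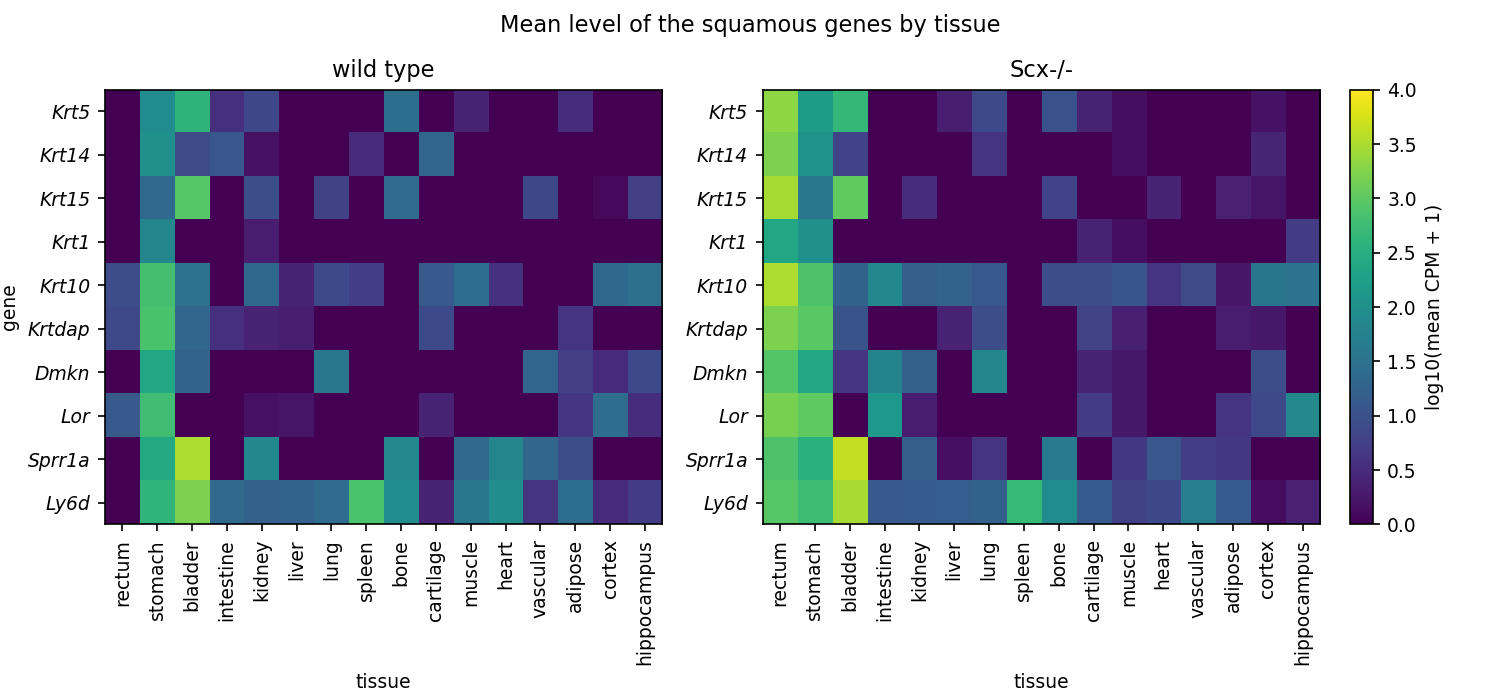
Mean level of the 10 genes (rows) in 16 tissues (columns) of wild-type (left) and *Scx*-/- mice (right), as log10 of the mean CPM of 3 libraries plus 1. The rectum column is near 0 in wild-type mice and among the highest in *Scx*-/- mice, whereas the stomach and bladder columns look alike in both.

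In the rectum the 10 genes were almost undetected in wild-type mice and abundant in *Scx*-/- mice. The wild-type libraries held 6, 1, and 2 counts of all 10 genes together, and the *Scx*-/- libraries 2075, 2904, and 2647. As a share of all counts this was 0.00276%, 0.0012%, and 0.00402% against 2.64%, 1.26%, and 0.843%. All 10 genes were found in each *Scx*-/- library, and 1 or 2 of them in a wild-type library. The rectum libraries held 217467, 83150, and 49764 counts in wild-type mice and 78710, 230777, and 314033 in *Scx*-/- mice, so that a gene with 0 counts in wild-type rectum may still have been present at up to 8.56 CPM (3 counts over the 3 libraries, counting error only). Each fold given as a lower bound is the summed counts over the summed totals of the 3 *Scx*-/- libraries against that floor. Wild-type replicate 1 held 217467 of the 350381 wild-type counts. Without it the floor would be higher and each lower bound lower.

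The basal keratins were at 0 in all 3 wild-type rectum libraries. *Krt5*, which pairs with *Krt14* in the filaments of basal cells, was at 4980, 854, and 455 CPM in *Scx*-/- replicates 1, 2, and 3, at least 137-fold higher than that floor. *Krt14* was at 3227, 1183, and 414 CPM, at least 123-fold higher. *Krt15*, a keratin of basal and hair follicle stem cells, was at 8068, 269, and 280 CPM, at least 147-fold higher. Replicate 1 was the highest for all 3 keratins, and most of all for *Krt15*. Without it the mean difference fell from 2096 to 654.5 CPM for *Krt5*, from 1608 to 798 CPM for *Krt14*, and from 2872 to 274 CPM for *Krt15*. The lower bound of the fold without replicate 1 was 72.9 for *Krt5*, 86.4 for *Krt14*, and 32.2 for *Krt15*.

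The suprabasal genes were more even over the 3 *Scx*-/- libraries. *Krt10* was at 3748, 3640, and 2350 CPM against 23.0, 0, and 0 CPM in wild-type rectum, a pooled ratio of 210.5 (95% exact counting interval 90.04 to 649). *Krt1*, its partner, was at 419, 139, and 153 CPM against 0 in all wild-type libraries, at least 21.2-fold higher, and its mean difference was 237 CPM with and 146 CPM without replicate 1. *Krtdap*, a secreted peptide of differentiating keratinocytes, was at 1321, 2175, and 1449 CPM against 0, 0, and 20.1 CPM, the last a single count. *Dmkn*, which encodes dermokine, another secreted protein of the upper epidermis, was at 470, 1144, and 965 CPM against 0, at least 113-fold higher. None of the 4 genes overlapped between genotypes, and *Krtdap* and *Dmkn* were lowest in replicate 1, the library in which the basal keratins were highest.

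The envelope genes were also higher in each *Scx*-/- library, without a shared order over the 3 libraries. *Lor*, the main protein of the cornified envelope, was at 1791, 1781, and 1025 CPM in *Scx*-/- rectum and at 4.598, 12.03, and 20.1 CPM in wild-type rectum, which was 1 count in each library, a pooled ratio of 164 (95% exact counting interval 55.8 to 795). *Sprr1a* was at 495, 784, and 1016 CPM against 0, at least 101-fold higher. *Ly6d*, a surface protein of keratinocytes that is also known from early B cells, was at 1842, 615, and 322 CPM against 0, at least 72.7-fold higher, with a mean difference of 926 CPM that was 468 CPM without replicate 1. Its order over the 3 libraries was that of *Krt5* and *Krt14*.

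In the count of groups that did not overlap, all 10 genes were higher in *Scx*-/- rectum, where 8.35% of 9261 genes with a group mean of at least 20 CPM were higher without overlap. By the quasi-likelihood test of edgeR, with *p* adjusted by Benjamini-Hochberg over 14292 genes, 9 of the 10 (all but *Krt15*) had an adjusted *p* under 0.05, against 0.399% of all genes called higher. *Krt1* was called in 5 of 11 alternatives and *Krt15* in 4 of 10, and the other 8 genes in all 11. Several of the 10 were chosen for this contrast, and nothing is read from these counts. The plot of single libraries shows the gap in rectum next to the overlap in the other 2 tissues.

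**Figure D2:**
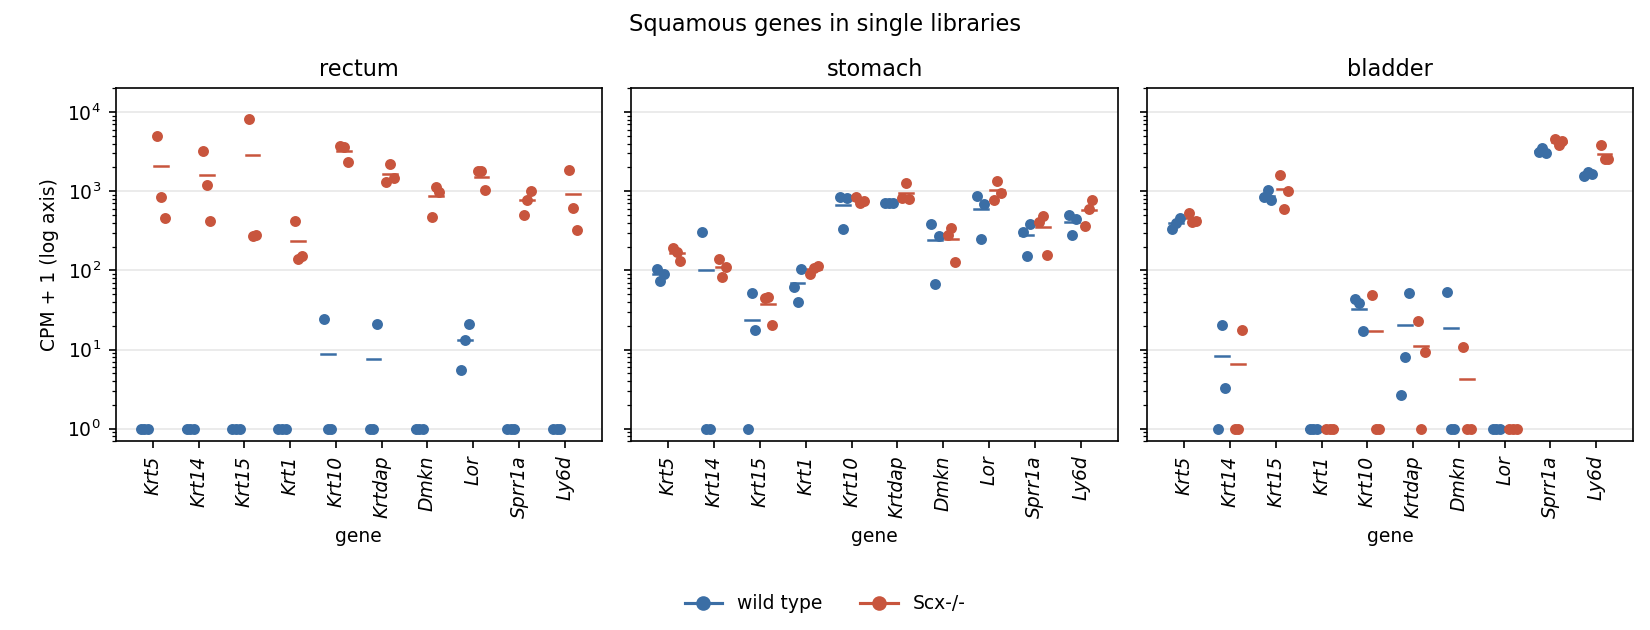
CPM plus 1 (log axis) of the 10 genes in each library of rectum, stomach, and bladder; points are libraries, short lines group means, blue wild-type and red *Scx*-/-. In rectum the 2 genotypes stay apart for all 10 genes, with wild-type points at or near 0 CPM; in stomach and bladder most genes overlap.

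The *Scx*-/- rectum libraries also held other genes of squamous epithelium. A list of 46 other epidermal genes had 45 members with a count in rectum, and 14 of them were higher in *Scx*-/- mice and 0 lower (edgeR adjusted *p* under 0.05), where 0.399% of all genes were higher, and DESeq2 called 14 of 32. By layer, 2 of 7 basal, 6 of 20 suprabasal, and 6 of 18 cornified genes were higher. In wild-type rectum 37 of the 45 were at or under the floor, so that these entered the test through their *Scx*-/- counts and could hardly be called lower, and the counts of calls describe the *Scx*-/- libraries without adding support. With such genes set to the floor the median log2 ratio of pooled CPM was 3.63 over the 45 genes and 0.11 over all genes above the floor. The list was written with earlier results of these data known.

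*Flg*, the filaggrin precursor that bundles keratin in the cornified layer, was at 1220, 2687, and 1697 CPM in *Scx*-/- rectum and at 0, 0, and 20.1 CPM in wild-type rectum (edgeR adjusted *p* = 2.15e-21). *Krt17*, a keratin of skin appendages and of stressed epidermis, was at 1525, 459, and 232 CPM against 0 (adjusted *p* = 1.58e-10 by edgeR). *Krt13* and *Krt4*, partner keratins of squamous mucosa such as the esophagus, were found together. *Krt13* was at 140, 845, and 1041 CPM against 0 (edgeR adjusted *p* = 5.43e-11). *Krt4* was at 292, 776, and 952 CPM against 0 (edgeR adjusted *p* = 8.06e-11). *Sbsn*, the neighbor of *Dmkn* at 7621 bases on chromosome 7, was at 381, 819, and 417 CPM against 0 (edgeR adjusted *p* = 1.53e-08). Thus markers of skin and of squamous mucosa were both present. These 5 genes were called in all 11 alternatives that were fitted to the rectum. They entered the test through their *Scx*-/- counts, so that these *p*-values and calls add no support.

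Not every gene of the list was absent from wild-type rectum. *Perp*, a desmosomal protein, was at 989, 541, and 322 CPM in wild-type and 2833, 1686, and 1439 CPM in *Scx*-/- rectum, and the difference did not pass the test (edgeR adjusted *p* = 0.185). *Tgm3*, a transglutaminase, was at 814, 950, and 502 CPM in wild-type and 25.4, 546, and 701 CPM in *Scx*-/- rectum, with overlapping groups. Within the *Krt* family, 8 of 54 symbols had a count in wild-type rectum and 41 in *Scx*-/- rectum, and 30 of the latter had more than 3 counts in *Scx*-/- and 0 in wild-type rectum. The *Scx*-/- libraries held more counts in all (623520 against 350381). Over all genes above the floor in rectum, 3314 of 12035 were at or under it in wild-type mice. A share of all genes by the rule used for the *Krt* family is not given here.

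Markers of other tissues moved with the 10 genes in the rectum. The 16 hair follicle genes of a list summed to 0 CPM in each wild-type library and to 445, 2245, and 704 CPM in the *Scx*-/- libraries, with 14 of 16 found. *Krt79*, a keratin of the follicle opening, was at 152, 451, and 150 CPM (edgeR adjusted *p* = 0.00235), and *Tchh*, trichohyalin of the inner root sheath, at 12.7, 433, and 73.2 CPM (edgeR adjusted *p* = 0.0482). Both calls were lost without *Scx*-/- replicate 2 (edgeR adjusted *p* = 0.859 for each gene) and without wild-type replicate 1 (0.0575 for *Krt79* and 0.367 for *Tchh*), and that of *Tchh* also without wild-type replicate 2 (0.183) and *Scx*-/- replicate 3 (0.124), with RLE (0.0878) and library totals (0.0979), and with the replicate block (0.999), 7 of 10 alternatives in all. Of 5 melanocyte genes, *Dct* alone was found, at 0, 17.3, and 3.18 CPM in *Scx*-/- rectum and 0 in wild-type rectum, and *Pmel*, *Tyr*, *Tyrp1*, and *Mlana* were at 0 in all 6 libraries.

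Summed markers of columnar epithelium were lower in *Scx*-/- rectum, through a few of their genes. The 10 intestinal epithelium genes summed to 9119, 12387, and 12660 CPM in wild-type rectum and to 356, 4654, and 7168 CPM in *Scx*-/- rectum, with 9 and 8 of 10 found. *Phgr1*, which is restricted to gut epithelium, fell from 3283, 5111, and 6209 CPM to 114, 563, and 1344 CPM (edgeR adjusted *p* = 1.33e-05), a call that held in 10 of 11 alternatives and not with filterByExpr (adjusted *p* = 0.0587 by edgeR). *Lgals4* was at 3849, 3620, and 3778 CPM in wild-type and 165, 2708, and 3786 CPM in *Scx*-/- rectum. The simple epithelial list (*Krt8*, *Krt18*, *Krt19*, *Krt7*, *Epcam*) summed to 8015 to 12037 CPM against 3036 to 7050 CPM. Lower without overlap were 2 of the 10 intestinal genes (*Phgr1* and *Slc26a3*) and 3 of the 5 simple epithelial genes (*Krt8*, *Krt19*, and *Epcam*), where 3.36% of all genes were, and edgeR called *Phgr1* alone. *Fabp2*, *Krt7*, and *Krt18* had higher means in *Scx*-/- rectum, with overlapping groups. Replicate 1 of *Scx*-/- rectum was the lowest of the 6 in both sums and the highest in *Krt5*, *Krt14*, and *Krt15*. The muscle genes *Ckm* (64.4 to 522 against 1182 to 1672 CPM, edgeR adjusted *p* = 0.0075) and *Acta1* (129 to 1929 against 2668 to 4485 CPM, edgeR adjusted *p* = 0.0335) were also higher in *Scx*-/- rectum, though *Acta1* was called in 1 and *Ckm* in 4 of 11 alternatives. Without wild-type replicate 1, the library lowest in both muscle genes, the adjusted *p* by edgeR was 0.764 for *Acta1* and 0.350 for *Ckm*. How far the tissue taken differed between the 2 groups was not tested, and it cannot be told apart from genotype here.

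**Figure D3:**
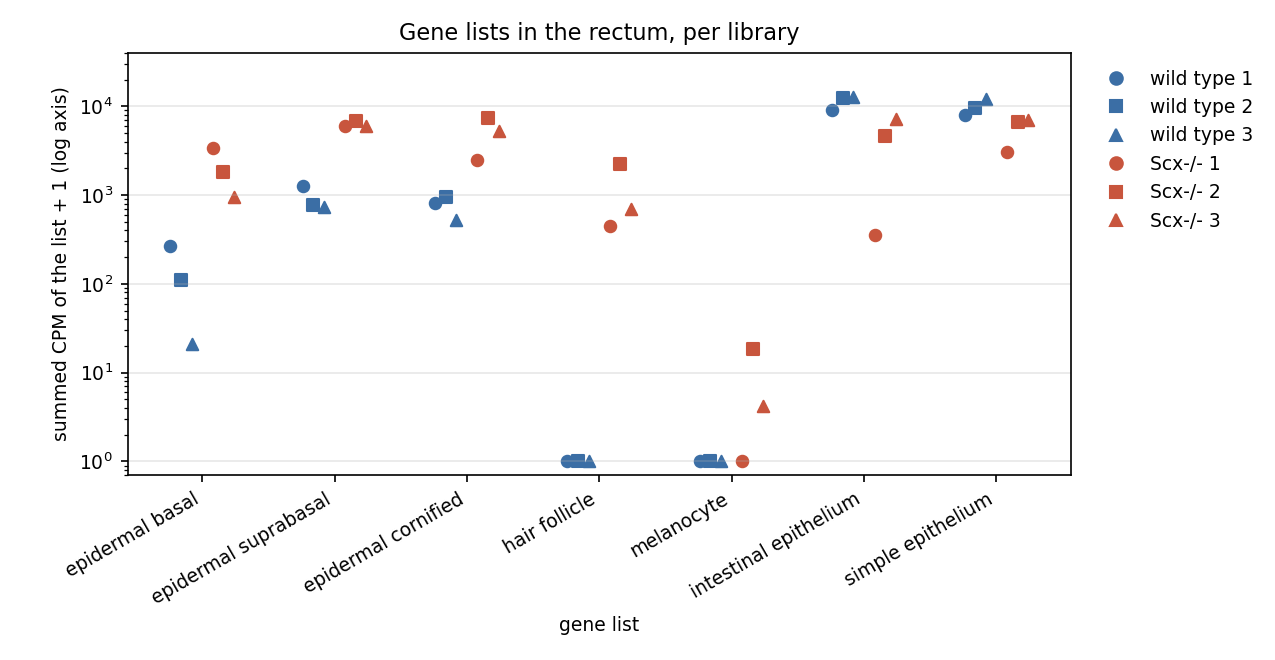
Summed CPM plus 1 (log axis) of 7 gene lists in the 6 rectum libraries; blue wild-type, red *Scx*-/-, with the symbol giving the replicate. The 3 epidermal lists and the hair follicle list were higher in each *Scx*-/- library than in any wild-type library, and the intestinal and simple epithelium lists were lower.

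The stomach, whose forestomach is squamous in the mouse, carried the 10 genes in both genotypes. Wild-type libraries had 9 and *Scx*-/- libraries 10 of the 10 genes, at 0.194% to 0.517% of all counts, while intestine had 1 to 3 of the 10 and at most 0.0437%. In a fit of the 6 stomach against the 6 intestine libraries, with genotype as a covariate, all 10 genes were higher in stomach (edgeR adjusted *p* under 0.05), where 3.69% of 15710 genes were higher. The median log2 ratio of pooled CPM, with genes under the floor set to it, was 4.99 for the 10 genes and -0.19 for all genes. In intestine 5 of the 10 genes were at or under the floor, so that these could hardly be called lower.

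Of the suprabasal and envelope genes, *Krtdap* was at 704 to 1262 CPM in stomach and 0 to 7.85 CPM in intestine (edgeR adjusted *p* = 8.29e-25). *Krt10* was at 329 to 847 CPM in stomach and was at 0 in 5 of 6 intestine libraries and at 218 CPM (12 counts) in the sixth, *Scx*-/- replicate 1, a log2 fold change of 5.75 (SE 0.67, edgeR adjusted *p* = 3.83e-15) that was 10.68 without that library. *Lor* was at 245 to 1364 CPM in stomach, at 0 in 4 intestine libraries, and at 33.3 and 377 CPM (1 and 10 counts) in *Scx*-/- intestine replicates 2 and 3, so that the ranges overlapped, and its log2 fold change was 5.82 (SE 0.66, edgeR adjusted *p* = 2.41e-16) and 8.69 without replicate 3. *Scx*-/- intestine replicates 1 and 3, which held the 12 counts of *Krt10* and the 10 of *Dmkn* (replicate 1) and 10 of the 11 of *Lor* (replicate 3), were also the intestine libraries highest in the gastric gene *Gkn1* (1365 and 2453 CPM), and the part of stomach-derived counts was not tested. *Sprr1a* (150 to 479 CPM) and *Krt1* (38.9 to 114 CPM) were at 0 in all intestine libraries (edgeR adjusted *p* = 3.68e-13 and 1.75e-04).

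The remaining genes of the stomach were *Dmkn*, *Ly6d*, and the basal keratins. *Dmkn* was at 65.8 to 384 CPM in stomach and at 182 CPM (10 counts) in 1 of 6 intestine libraries (log2 fold change 4.45, SE 0.85, edgeR adjusted *p* = 1.05e-05, and 9.18 without that library, *Scx*-/- replicate 1) and *Ly6d* at 278 to 772 CPM (5.17, SE 0.71, edgeR adjusted *p* = 4.27e-11). *Krt5* was at 71.8 to 193 CPM (edgeR adjusted *p* = 4.34e-05). *Krt14* was at 302, 0, and 0 CPM in wild-type and 137, 80.7, and 110 CPM in *Scx*-/- stomach (edgeR adjusted *p* = 0.00698). Without wild-type stomach replicate 1, which held all wild-type *Krt14* counts, its adjusted *p* by edgeR was 0.617, and DESeq2 did not call it (adjusted *p* = 0.216). Without wild-type intestine replicate 1, the intestine library with all 13 *Krt14* counts, the log2 fold change rose from 3.86 to 7.83. *Krt15* was at 0 to 50.9 CPM (edgeR adjusted *p* = 0.0257), and 8 of 16 alternatives did not call it, 6 of which left out 1 library (highest adjusted *p* 0.0784, without wild-type stomach replicate 2).

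Of the other epidermal genes, 18 of 44 were higher in stomach than in intestine and 0 lower, 1 of 7 basal, 7 of 20 suprabasal, and 10 of 17 cornified. Over all genes, 3.69% were higher. Of the 41 list genes above the floor, 34 were at or under it in intestine. These could hardly be called lower, and the counts of calls describe the stomach libraries. The genes of the list with the highest CPM in stomach were *Krt13* (327 to 1143 CPM), *Perp* (353 to 890 CPM), and *Sprr3* (192 to 748 CPM), an envelope precursor of squamous mucosa. *Flg* was at 111 to 559.5 CPM. The hair follicle list summed to 14.96 to 77.9 CPM in stomach, with *Krt79* alone in wild-type and *Krt79* and *Tchh* in *Scx*-/- libraries, against 445 to 2245 CPM in *Scx*-/- rectum. The gastric gland list, led by *Tff1* and *Gkn1*, summed to 163813 to 247346 CPM in the stomach libraries.

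Between genotypes the stomach values mostly overlapped. *Krt5* was at 104, 71.8, and 89.1 CPM in wild-type and 193, 169.5, and 130 CPM in *Scx*-/- stomach, a ratio of means of 1.85. *Krtdap* was at 704, 709, and 706 CPM against 813, 1262, and 792 CPM, a ratio of 1.35. Its difference of 249 CPM was 96.1 CPM without *Scx*-/- replicate 2. These 2 of 10 genes did not overlap, where 7.32% of 7722 genes were higher without overlap, and 0 of 10 were called by edgeR and by DESeq2, with 1 at an unadjusted *p* under 0.05, where edgeR called 0.0474% of all genes higher. All 10 genes had a higher mean in *Scx*-/- stomach, where 54% of the 7722 genes did. Of 44 other epidermal genes, 9 were higher and 0 lower at an unadjusted *p* under 0.05, against 545 of 14770 genes in either direction, and 0 were called by edgeR and 0 of 27 by DESeq2. The gastric gland list was lower without overlap, at 202283 to 247346 CPM in wild-type and 163813 to 197171 CPM in *Scx*-/- stomach, and *Gkn1* was at 46086 ± 4668 CPM (SD, n = 3) in *Scx*-/- stomach (edgeR adjusted *p* = 0.0247). The part of the tissue taken in these values was not tested.

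The bladder had a different selection of the 10 genes. *Sprr1a*, *Ly6d*, *Krt15*, and *Krt5* each had at least 328 CPM in all 6 libraries, and the other 6 genes were near or at 0. *Lor* and *Krt1* were at 0 in all 6 bladder libraries, *Dmkn* and *Krt14* had a count in 2 and 3 of 6 libraries, and *Krt10* (0 to 48.5 CPM) and *Krtdap* (0 to 50.3 CPM) stayed low. Against kidney, with genotype as a covariate, 4 of 10 genes were higher (edgeR adjusted *p* under 0.05) and 0 lower, where 7.27% of 17199 genes were higher and 8.4% lower. The median log2 ratio of pooled CPM was 4.89 over the 8 genes above the floor and 0.11 over all genes.

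Both basal keratins of the bladder were far above kidney. *Krt15* was at 837, 1024, and 775 CPM in wild-type and 1597, 602, and 1008 CPM in *Scx*-/- bladder, a log2 fold change against kidney of 7.13 (SE 0.33, edgeR adjusted *p* = 3.59e-89). *Krt5* was at 328, 394, and 460 CPM and 536, 409, and 420 CPM (log2 fold change 6.69, SE 0.43, edgeR adjusted *p* = 2.51e-52). The groups overlapped for both genes. *Sprr1a* was higher in bladder than in kidney by 6.38 on the log2 scale (SE 0.61, edgeR adjusted *p* = 3.68e-05) and *Ly6d* by 7.02 (SE 0.75, edgeR adjusted *p* = 8.62e-05).

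Those 2 genes were also higher in *Scx*-/- than in wild-type bladder without overlap. *Sprr1a* was at 3097, 3486, and 3055 CPM against 4588, 3814, and 4259 CPM, a ratio of means of 1.31. *Ly6d* was at 1572, 1747, and 1630 CPM against 3839, 2534, and 2523 CPM, a ratio of 1.8. In bladder 5.76% of 8648 genes were higher without overlap. edgeR called 0 of the 8 genes tested between genotypes in bladder, with 1 higher at an unadjusted *p* under 0.05, where it called 0.033% of all genes higher. DESeq2 called 1 of the 4 it tested, *Ly6d*, for which no share over all genes is given here. Of 7 urothelial genes, 3 were higher in *Scx*-/- bladder without overlap, *Upk1b* (ratio of means 1.26), *Krt7* (1.64), and *Krt20* (2.52), and *Krt8* (1.65) and *Krt18* (1.38) of the simple epithelial list were too, none of them called by edgeR. The uroplakins *Upk1a* and *Upk3a*, proteins of the urothelial surface, were at 1475 to 4206 CPM and 1630 to 3182 CPM with overlapping groups. The part of these markers in the difference of *Sprr1a* and *Ly6d* was not tested.

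Of the other epidermal genes, 10 of 27 were higher in bladder than in kidney and 0 lower, 4 of 5 basal, 5 of 14 suprabasal, and 1 of 8 cornified. Over all genes, 7.27% were higher and 8.4% lower. Of the 22 list genes above the floor, 9 were at or under it in kidney, so that these could hardly be called lower. *Trp63*, the transcription factor that maintains basal cells, was at 91.8 to 162 CPM in bladder (edgeR adjusted *p* = 1.58e-20), and *Perp*, *Aqp3*, and *Sfn* had the highest CPM of the list with means of 709, 360 and 216 CPM. The cornified gene called was *Ivl*, involucrin, at 41.2 to 325 CPM.

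The share of the basal layer within the 10 genes was described in the 3 tissues, without a test. The basal keratins *Krt5*, *Krt14*, and *Krt15* made up 20.6% ± 0.89 (SD, n = 3) of the counts of the 10 genes in wild-type bladder and 17.1% ± 3.17 in *Scx*-/- bladder. In stomach they made up 6.43% ± 3.48 in wild-type and 7.29% ± 1.97 in *Scx*-/- mice. In *Scx*-/- rectum the share was 61.7%, 18.3%, and 13.6% in replicates 1 to 3 (exact 95% intervals 59.6 to 63.8%, 16.9 to 19.8%, and 12.4 to 15.005%), a mean of 31.2% ± 26.5 that rests on replicate 1. Which tissue the rectum libraries were nearest to depended on the genes counted. Among the 5 keratins alone the share in *Scx*-/- rectum was 79.6%, 37.9%, and 31.5%, against means of 97.6% and 99.3% in wild-type and *Scx*-/- bladder and 22.1% and 26.04% in stomach. The ranges of the 2 genotypes overlapped in bladder and in stomach. Wild-type rectum, with at most 6 counts per library, has no share.

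**Figure D4:**
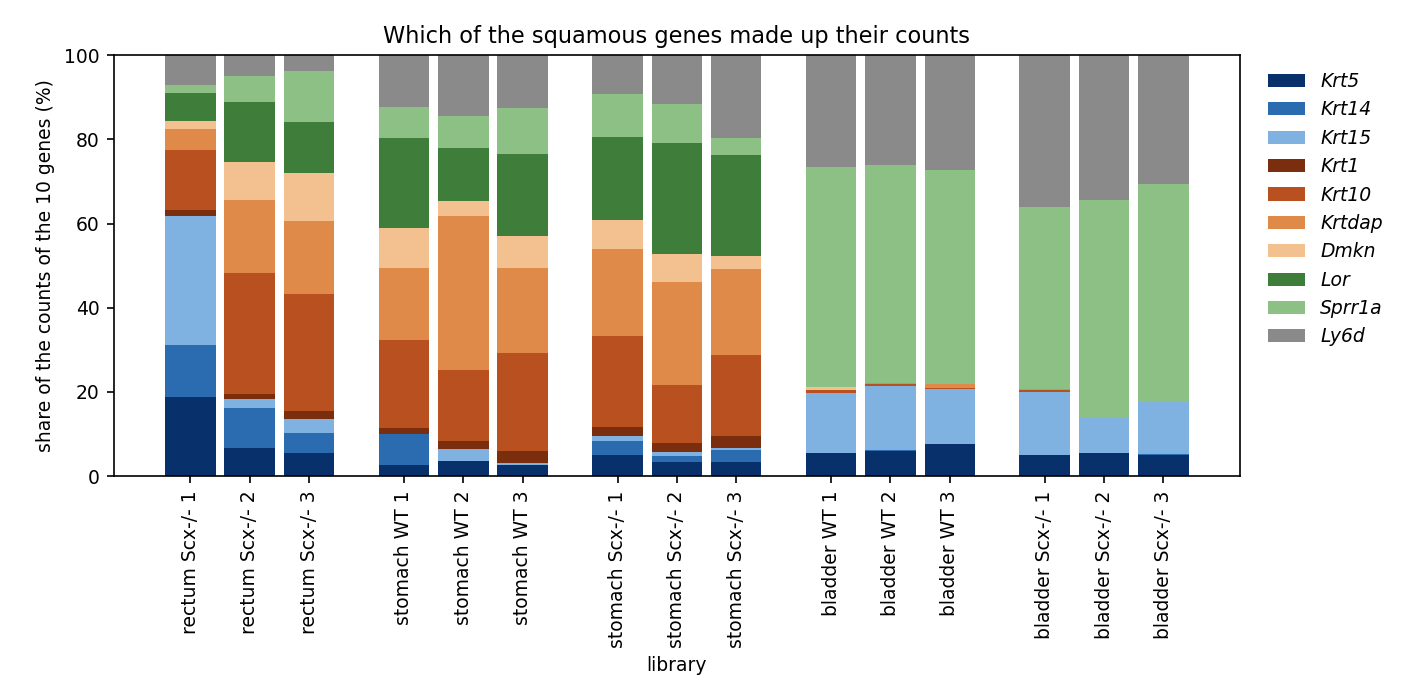
Share of the counts of the 10 genes taken by each gene (percent, stacked to 100) in the libraries of *Scx*-/- rectum, stomach, and bladder; blue basal keratins, brown and orange suprabasal genes, green envelope genes, gray *Ly6d*. *Sprr1a* and *Ly6d* fill most of each bladder bar, and basal keratins take 61.7% of *Scx*-/- rectum replicate 1 against 18.3% and 13.6% of the other 2.

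The rectum as a tissue was also set against the intestine over both genotypes. The fit called 7 of the 10 genes and 12 of 45 other epidermal genes higher in rectum, where 1.37% of 15482 genes were higher. Both counts restate the *Scx*-/- rectum libraries, since at most 2 of the 10 genes were found in a wild-type rectum library and 37 of the 45 others were at or under the floor there. With filterByExpr, 3 of 3 and 1 of 5 of those tested were called, and with DESeq2 3 of 9 and 6 of 30. The share of all genes called with filterByExpr and with DESeq2 is not given here. Without *Scx*-/- rectum replicate 2 the fit called 6 of the other epidermal genes.

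In lung and cartilage the 10 genes were scarce. Lung was compared with heart because airways have basal cells, and 1 of 8 genes tested was higher, *Dmkn*, where 3.24% of 15390 genes were higher. *Dmkn* was at 43.9, 64.2, and 0 CPM in wild-type and 174, 4.4, and 28.0 CPM in *Scx*-/- lung and at 0 in all heart libraries (edgeR adjusted *p* = 0.0104, and 0.0870 without *Scx*-/- lung replicate 1). Of the other epidermal genes 0 of 22 were higher in lung by edgeR and 0 of the 2 that DESeq2 tested, with 2 at an unadjusted *p* under 0.05, and 1 was lower, *Perp*, where 4.18% of genes were lower. *Krt80*, the gene of the list with the highest CPM in lung, was at 8.77 ± 15.2 CPM in wild-type and 113 ± 106 CPM in *Scx*-/- lung (SD, n = 3). Cartilage was compared with muscle as limb tissue, and 0 of 9 genes were higher by edgeR and 0 of the 1 that DESeq2 tested, with 0 higher at an unadjusted *p* under 0.05, where 1.09% of 15938 genes were higher. The cartilage libraries also held the muscle genes *Acta1* (51956 to 61950 CPM) and *Ckm* (13497 to 20603 CPM). In muscle these were at 73450 to 106695 and 30396 to 46107 CPM. The part of muscle in the cartilage libraries was not tested. For the other epidermal genes the counts in cartilage were 0 of 24 by edgeR and 0 of 3 by DESeq2, with 2 at an unadjusted *p* under 0.05, and *Trp63*, *Perp*, and *Itgb4* were the highest at means of 8.91, 8.5, and 8.34 CPM.

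Outside rectum, stomach, and bladder, 6 pairs of gene and tissue had groups that did not overlap and a group mean of at least 20 CPM, and most rest on few counts. *Sprr1a* in kidney was at 48.3, 68.2, and 103 CPM in wild-type and 31.3, 6.14, and 8.25 CPM in *Scx*-/- mice, 4.8-fold lower, in a tissue where 8.3% of genes were lower without overlap. In bone *Sprr1a* was at 78.0, 83.7, and 63.7 CPM against 20.8, 56.3, and 47.3 CPM (17 and 14 counts in all), and *Krt15* at 17.3, 33.5, and 21.2 CPM against 8.31, 8.05, and 0 CPM (5 and 3 counts, pooled ratio of wild-type over *Scx*-/- 3.05, 95% exact counting interval 0.594 to 19.7), where 4.38% of genes were lower.

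The genotype difference of *Lor* had opposite signs in the 2 brain regions, which was not tested. In cortex it was at 30.8, 14.0, and 32.4 CPM in wild-type and 0, 6.37, and 13.8 CPM in *Scx*-/- mice (80 and 26 counts), where 5.31% of genes were lower. In hippocampus it was at 0, 0, and 6.995 CPM against 20.7, 39.1, and 168 CPM (1 and 73 counts, pooled ratio 26.1, 95% exact counting interval 4.53 to 1043), where 9.2% of genes were higher, and the difference of 73.7 CPM was 27.6 CPM without *Scx*-/- replicate 3. *Ly6d* in vascular samples was at 2.82, 6.47, and 0 CPM against 26.2, 13.0, and 112 CPM (2 and 15 counts, pooled ratio 17.1, 95% exact counting interval 3.98 to 154), where 3.8% of genes were higher, and its difference of 47.2 CPM was 16.5 CPM without *Scx*-/- replicate 3, in samples that also had the highest level of both adipose markers. The authors left vascular samples out of their later comparisons because of contamination.

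Of the 160 pairs of gene and tissue, 50 had a group mean of at least 20 CPM, and 20 of these did not overlap, 16 higher and 4 lower in *Scx*-/- mice, where 11.8% of all pairs at that level did not. All 10 genes reached that level in at least 2 tissues, and 3 of them did not overlap in opposite directions in different tissues, as did 15.9% of the 13257 genes at that level in at least 2 tissues. Outside rectum edgeR called 0 of the 105 pairs of the 10 genes that were tested, where it called 0.0671% of all pairs. At an unadjusted *p* under 0.05 by edgeR, 7 were higher and 2 lower, and DESeq2 called 1 of the 76 it tested. No share of all pairs is given for the unadjusted or DESeq2 counts, and nothing is read from them. For the other epidermal genes outside rectum, edgeR called 0 of 248 pairs, with 13 higher and 3 lower at an unadjusted *p* under 0.05, and DESeq2 called 0 of the 153 it tested. Of the 13, 9 were in stomach, and the share of all pairs is not given for these counts either. The highest group mean outside the 3 tissues was that of *Ly6d* in spleen, where it was at 1085, 717, and 437 CPM in wild-type and 338, 439, and 666 CPM in *Scx*-/- mice.

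*Lor* and *Sprr1a* lie in the epidermal differentiation complex on chromosome 3, and the genes around them followed the same split by tissue. The window, chosen after values were seen, reached 600 kb beyond the 2 genes (chr3:91480271-93085895) and held 52 annotated genes that are in the count table. In rectum 4 of these genes had a count in wild-type and 38 in *Scx*-/- mice. In stomach 33 and 35 had a count and in bladder 5 and 6. The late cornified envelope (*Lce*) genes, expressed at the end of differentiation, had counts for 1 of 21 genes in wild-type rectum, 20 in *Scx*-/- rectum, 21 and 20 in stomach, and 0 in bladder of either genotype. Members of the *Lce* and *Sprr* families are alike in sequence, so that counts may be split between them. A share of all genes with such counts is not given here, and the *Scx*-/- rectum libraries held more counts in sum. *Sprr2a3* was the exception in wild-type rectum, at a mean of 414 CPM against 256 CPM in *Scx*-/- mice.

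**Figure D5:**
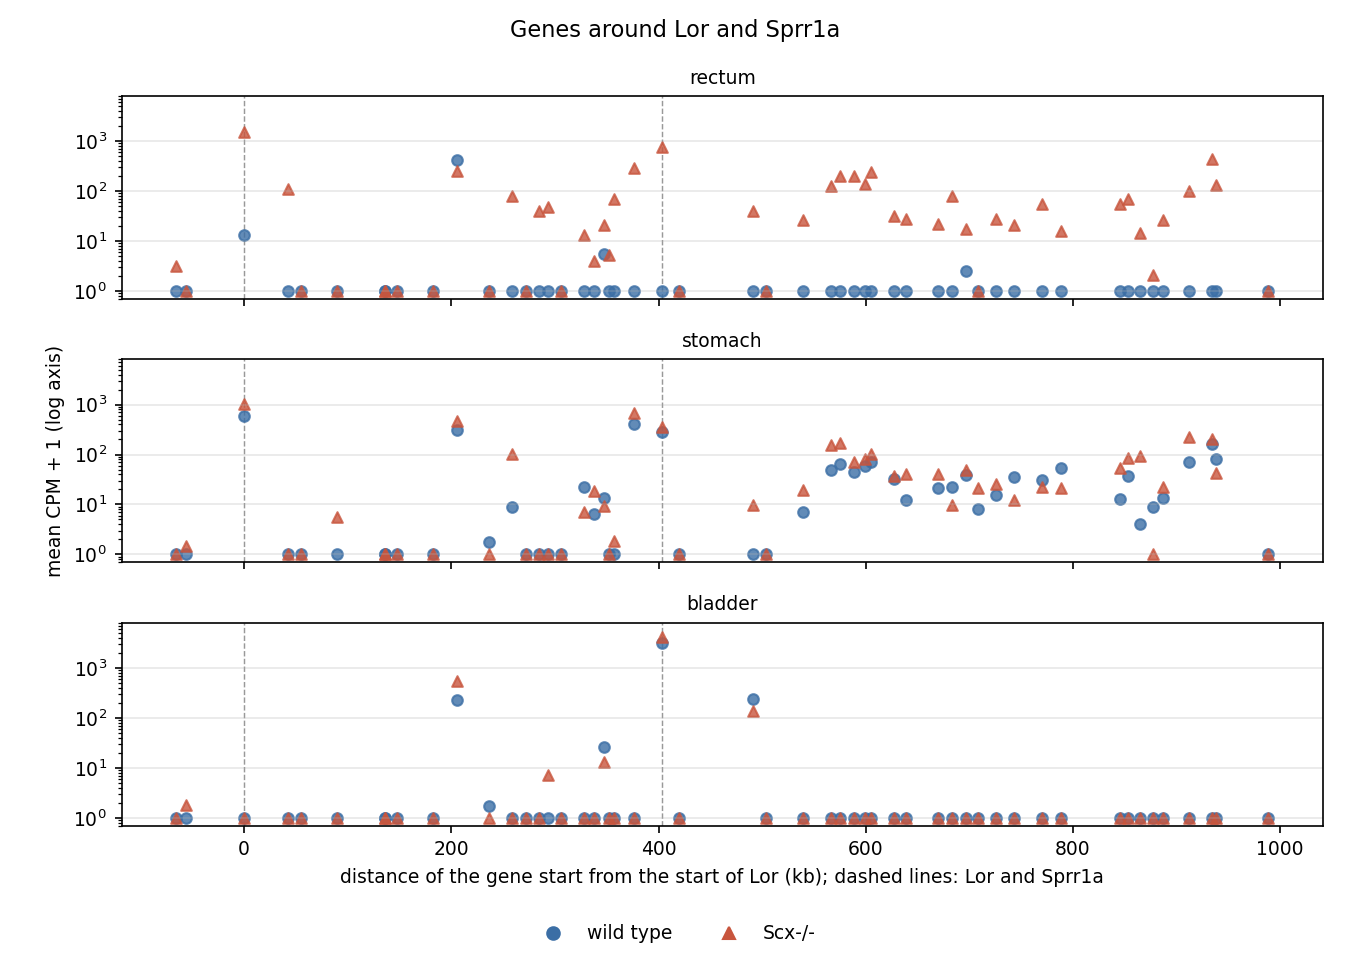
Mean CPM plus 1 (log axis) of the genes around *Lor* and *Sprr1a* against the distance of their start from that of *Lor* (kb), in rectum, stomach, and bladder; blue circles wild-type, red triangles *Scx*-/-. In rectum the wild-type circles lie at 0 CPM for all but 4 genes, in stomach both genotypes have counts across the window, and in bladder 5 and 6 genes have any.

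Across the 32 groups of tissue and genotype, the 10 genes had pairwise Pearson correlations of log2(CPM + 1) from 0.19 (*Ly6d* and *Lor*) to 0.94 (*Krtdap* and *Krt1*), with a median of 0.71 over 45 pairs. The next highest pair was *Krt15* and *Krt5* at 0.93. These points share tissues and libraries, and the values describe the groups only. Among 15672 genes with at least 50 counts, those most like the mean of the 10 over the 32 groups were *Lypd3* (0.97), *Krt4* (0.96), *Krt78* (0.95), *Krt79* (0.93), *Psapl1* (0.91), *Capn13* (0.91), *Lgals7* (0.91), and *Pitx1* (0.90). The list depended on the measure and changed almost wholly with Spearman correlation, as given in the last section. *Lypd3* was at 0 CPM in wild-type and a mean of 185 CPM in *Scx*-/- rectum, 50.8 and 58.9 CPM in stomach, and 41.4 and 19.0 CPM in bladder. *Capn13* was the only one of the 8 with a mean above 10 CPM in wild-type rectum, at 36.1 CPM.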

How the data were processed

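Bulk RNA from both genotypes was sequenced with sample barcodes added at reverse transcription. The authors deposited a table of whole-number counts for each gene symbol and library. They aligned reads to mm10 (Bowtie2, default parameters) and counted them with HTSeq. The sources used here do not state versions, annotation, strand setting, or molecular identifiers, so intervals and floors cover counting error only. Groups came from the sample labels, and 0 columns of the table were left unmapped. No 2 replicates agreed within counting noise (chi-square per degree of freedom at least 6.93 over 96 pairs).

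CPM was computed on library totals. Tests used edgeR 4.0.16 in R 4.3.3 (genes at 0 in all fitted libraries removed, TMM, glmQLFit with robust estimation, Benjamini-Hochberg over all genes tested), per tissue for genotype and over 12 libraries with genotype as covariate between tissues. Alternatives were RLE, library totals, filterByExpr, DESeq2 1.42.0, the replicate number as a block, and leaving out each library. Fits were tried on simulated counts. Tables used Python 3.11.15 with numpy 2.4.6, pandas 2.3.3, and scipy 1.17.1, and figures matplotlib 3.10.9. An adjusted p under 0.05 is a call. The 10 genes and the gene lists were chosen with earlier results of these data known. Beside the 10 genes, the text names pairs of gene and tissue without overlap and with a group mean of at least 20 CPM, up to 5 called epidermal genes with the highest mean per comparison, the 3 most abundant epidermal genes of 5 tissues, the 2 most abundant genes of other lists, and the 8 genes most like the mean of the 10. Named outside this rule, after values were seen, are *Trp63* and *Ivl* in bladder, *Flg* in stomach, *Sprr2a3*, single melanocyte genes, *Scx*, *Gkn1* outside stomach, *Acta1* and *Ckm* in cartilage, the tissue markers that were not highest in their own tissue, the markers *Upk1b*, *Krt7*, *Krt8*, *Krt18*, *Krt20*, *Slc26a3*, *Epcam*, and *Fabp2* beside bladder or rectum results, and the window on chromosome 3. The SE of a log2 fold change is its size divided by the square root of the F statistic. Protein sequences were not used here.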

Additional observations from a re-analysis of the deposited data

Results flagged for a closer look

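3 of the 10 genes had groups that did not overlap in opposite directions in different tissues, as differences of the mean CPM of *Scx*-/- minus wild-type libraries. For *Krt15* the difference was -18.6 CPM in bone and 2872 CPM in rectum. For *Lor* it was -19.0 CPM in cortex, 73.7 CPM in hippocampus, and 1520 CPM in rectum. For *Sprr1a* it was -57.8 CPM in kidney and -33.6 CPM in bone against 1008 CPM in bladder and 765 CPM in rectum. Whether these differences differ between tissues was not tested, and the genes were chosen with such a pattern in view. Of all 13257 genes with a group mean of at least 20 CPM in at least 2 tissues, 15.9% had such opposite differences. The bone values rest on 5 and 3 counts for *Krt15* and on 17 and 14 counts for *Sprr1a*.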

How the results depend on the processing

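The directions of the 20 named genotype differences held in all 160 alternatives tried for them (TMM sizes, pooled totals, and each library left out), and 0 reversed. Calls between genotypes were 9 pairs higher for the 10 genes (8 to 10 when each library was left out) and 14 for the other epidermal genes (10 to 15), and 0 were lower in any of these fits. Against intestine, stomach gave 10 (9 to 10) and 18 (15 to 18), and rectum gave 7 (5 to 8) and 12 (6 to 13). Rectum against intestine gave 3 and 1 with filterByExpr, which tested fewer genes, and 3 and 6 with DESeq2, for which the cause was not tested. Bladder against kidney gave 4 (4 to 5) and 10 (10 to 11), and cartilage against muscle 0 and 0 throughout. Lung against heart gave 1 (0 to 1) and 0 (0 to 1), with 0 for the 10 genes under filterByExpr and 1 other epidermal gene under RLE and under library totals. The basal share among keratins alone was 97.6% and 99.3% in wild-type and *Scx*-/- bladder, 22.1% and 26.04% in stomach, 49.7% in *Scx*-/- rectum (31.2% of all 10 genes), 36.4% in wild-type kidney (10.4% of all 10 genes), and 0.855% in wild-type cortex (0.303%). Of the 8 most alike genes, 5 were shared with log2(CPM + 10) and 1 with Spearman. Same-numbered libraries had correlations of -0.189 to 0.0351 between genotypes over 16 tissues and -0.0283 to 0.0977 in the 5 pairs of tissues compared, none over 0.1, so the number was not used as a pairing in these comparisons. Whether same-numbered libraries share an animal is not known, and other pairs of tissues were not tested. With the replicate block the counts were 9 and 11 between genotypes, 10 and 17 for stomach, 6 and 8 for rectum, 4 and 10 for bladder, 1 and 0 for lung, and 0 and 0 for cartilage. In rectum 63 of all genes were called, 39 with the block, 41 with filterByExpr, and 37 (without *Scx*-/- replicate 2) to 62 when a library was left out. The median log2 fold change of all genes in rectum was 0.45 with TMM, 0.37 with RLE, and 0.34 with totals. Depth limits the wild-type rectum to 8.56 CPM for a gene at 0, a limit that rests mostly on wild-type replicate 1 and would be higher without it.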
